A study of Mus musculus with 12 samples.

Results

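Interferon-stimulated effector genes encode the proteins with which a cell acts against viruses: the ubiquitin-like modifier ISG15 and its enzymes, the RNA-binding IFIT proteins, the OAS family, Mx GTPases, viperin, the IFITM membrane proteins and tetherin, TRIM and PARP family enzymes, and several others. A list of 43 such mouse genes was followed in 3 mesenchymal breast cancer cell lines in which Nrf2 had been depleted by RNA interference. Members were taken by symbol from the Entrez rows of the authors' expression table, and those with a CPM value (reads of a gene scaled to a fixed library size) of at least 1 in at least 2 of 12 libraries were tested. All 43 were found among 24454 rows, and 28 of them were tested, among 12502 genes tested in all.

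MT∆Ecad (DeltaLN in the sample titles) is a line from tumours of MMTV-Neu mice, and its name marks a deletion of E-cadherin, the product of Cdh1. PyMT-1099 LT and Py2T LT are lines from tumours of MMTV-PyMT mice, and in both mouse models the mammary-active MMTV promoter drives the oncogene. The labels call all 3 lines mesenchymal, give no further genotype and do not explain LT. Cells received a Dharmacon siRNA against Nrf2 (siNrf2) or a non-targeting one (siCtl) for 48 hours, so the 6 groups were MT∆Ecad siNrf2 and siCtl, PyMT-1099 LT siNrf2 and siCtl, and Py2T LT siNrf2 and siCtl. Each group held 2 libraries, which the series text calls biological replicates, and each line is a single line. Both groups of a line carried a transfected siRNA, and no library analysed here came from cells without one. The labels name no second siRNA treatment against Nrf2, so loss of Nrf2 and any other effect of siNrf2 cannot be told apart.

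The libraries held 27088970 to 37070635 reads. Nfe2l2, the gene of Nrf2, stood at 50.8 and 54.0 CPM in siNrf2 and 208 and 209 CPM in siCtl libraries of MT∆Ecad, at 25.7 and 33.3 CPM against 113 and 113 CPM in PyMT-1099 LT, and at 21.9 and 24.5 CPM against 89.7 and 83.6 CPM in Py2T LT. Every siNrf2 library lay below every siCtl library of its line, and the effect averaged over the lines was −1.91 ± 0.07 on the log2(CPM + 1) scale (SE, limma adjusted p 5.26e-06). All 8 mesenchymal markers had reads in MT∆Ecad, with 16505 to 17413 summed CPM in siNrf2 and 12030 to 12598 CPM in siCtl libraries, and Twist1 was at 0 in PyMT-1099 LT. Fn1 and Col1a1 rose in MT∆Ecad, by 0.76 and 1.49 (limma adjusted p 0.00122 and 0.00503). The 8 epithelial markers summed to 1285 to 1293 CPM in siNrf2 and 1125 to 1230 CPM in siCtl libraries of MT∆Ecad, mostly from Krt8 and Krt18, which were high in all lines. Cdh1 reached at most 0.639 CPM in MT∆Ecad, and Epcam, Esrp1 and Cldn4 were at or near 0 there, against 9.99 to 234 CPM in Py2T LT. Krt14 had 47.4 and 50.1 CPM in siNrf2 against 142 and 123 CPM in siCtl libraries of MT∆Ecad and fell by 1.42 (limma adjusted p 0.000373). The part of these markers in the effector results was not tested. In these bulk libraries, fewer cells expressing a gene and less RNA of it per cell cannot be told apart.

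Type I and type III interferons signal through JAK kinases to a transcription factor complex that contains STAT2 and IRF9 and binds the interferon-stimulated response element, a pair of GAAA half-sites in the promoters of effector genes. Interferon gamma acts on another element, the GAS, and IRF1 and IRF7 can bind sites of the first kind. Many effector genes also keep a low level of expression in the absence of added interferon.

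The element itself was read from RefSeq promoter windows of GRCm38.p6, which run from 250 bases before to 50 bases after each annotated start. The half-site pair was searched as GAAA, any 2 bases and GAAA again on both strands, with overlapping matches allowed. It was present in 14 of 33 members that had a window, against 3.99% of 27025 genes. The GAS, searched as TTCNNNGAA on both strands, was present in 5 of 33, against 9.55% of genes. Both searches describe letters in a window and not binding. The 5 stretches below are each the 250 bases before an annotated start. Isg15 and Trim30a rose in MT∆Ecad and hold the pair, and Uba7 also rose there and lacks it. Of the neighbours Ifit1 and Ifit2, Ifit1 holds it and Ifit2 lacks it in the windows read. Each stretch is written 5′ to 3′ on the strand of its gene, and capitals mark the half-site pairs.
Isg15 promoter, chr4:156200819-156201068, minus strand: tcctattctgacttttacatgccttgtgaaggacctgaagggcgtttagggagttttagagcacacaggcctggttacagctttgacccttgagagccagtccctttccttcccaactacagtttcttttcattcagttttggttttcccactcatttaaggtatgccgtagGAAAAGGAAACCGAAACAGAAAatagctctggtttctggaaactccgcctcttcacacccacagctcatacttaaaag
Trim30a promoter, chr7:104465194-104465443, minus strand: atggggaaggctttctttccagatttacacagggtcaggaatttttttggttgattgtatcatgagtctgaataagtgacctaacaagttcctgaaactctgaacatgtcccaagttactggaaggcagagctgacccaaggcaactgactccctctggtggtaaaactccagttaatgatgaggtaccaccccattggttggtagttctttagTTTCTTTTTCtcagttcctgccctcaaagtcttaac
Uba7 promoter, chr9:107975317-107975566, plus strand: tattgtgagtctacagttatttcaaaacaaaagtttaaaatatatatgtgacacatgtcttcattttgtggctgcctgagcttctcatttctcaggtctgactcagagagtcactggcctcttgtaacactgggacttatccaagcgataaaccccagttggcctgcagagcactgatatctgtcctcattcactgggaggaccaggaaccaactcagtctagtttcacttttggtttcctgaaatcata
Ifit1 promoter, chr19:34640639-34640888, plus strand: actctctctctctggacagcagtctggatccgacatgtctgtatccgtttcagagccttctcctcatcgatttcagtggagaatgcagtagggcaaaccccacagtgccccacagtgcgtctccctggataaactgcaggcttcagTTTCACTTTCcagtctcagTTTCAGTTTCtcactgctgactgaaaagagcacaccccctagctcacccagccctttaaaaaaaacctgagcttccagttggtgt
Ifit2 promoter, chr19:34550444-34550693, plus strand: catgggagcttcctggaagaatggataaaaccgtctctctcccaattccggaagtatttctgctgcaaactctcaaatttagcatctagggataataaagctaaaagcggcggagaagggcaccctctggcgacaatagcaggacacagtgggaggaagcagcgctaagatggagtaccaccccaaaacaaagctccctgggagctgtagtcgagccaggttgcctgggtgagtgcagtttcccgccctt
Isg15 held 3 overlapping pairs, which begin 78, 72 and 66 bases before the start. The window of Ifit1 held 2 pairs, at 104 and 85 bases before the start, both on the strand opposite to the gene. Trim30a held a pair 36 bases before this start, 1 of 2 with a window. Ifit2 also had 2 windows, and neither held the pair. The annotated gene of Ifit2 begins at 34550550, inside the printed stretch, and bases before 34550444 were not searched. The pair was present in 4 of 11 members with a window that rose in MT∆Ecad (Isg15, Ifitm3, Trim30a and Trim21), in 4 of 12 tested members that did not pass there (Oas3, Ifitm2, Bst2 and Ifi203) and in 6 of 10 members below the expression filter (Ifit1, Ifit3, Ifit3b, Oas1a, Oas1g and Rsad2).

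In MT∆Ecad, siNrf2 came with higher expression of many effectors, from the ISG15 pathway, the TRIM and PARP families and others. Of 28 tested members, 14 rose and 0 fell, which is 50% of them, where 8.89% of all tested genes rose and 8.42% fell (limma, adjusted p under 0.05). The median difference of mean log2(CPM + 1), siNrf2 minus siCtl, was 0.57 over the members and 0.00 over all genes, and 26 of 28 members had a positive difference. Changes below are on this log2 scale, which understates changes of genes with few reads, and the fold that goes with each is the ratio of mean CPM. Gene positions are those of the GRCm38 (mm10) build. Replicates 1 and 2 of siNrf2 and siCtl deviated together within each line, and a fit with these pairs as a block called 20 members higher and 1 lower, with 21.4% and 21.2% of all genes. The siNrf2 libraries of both replicates lay above both siCtl libraries for 23 members and below them for 2, against 32.5% and 32.8% of all genes.

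**Figure D1:**
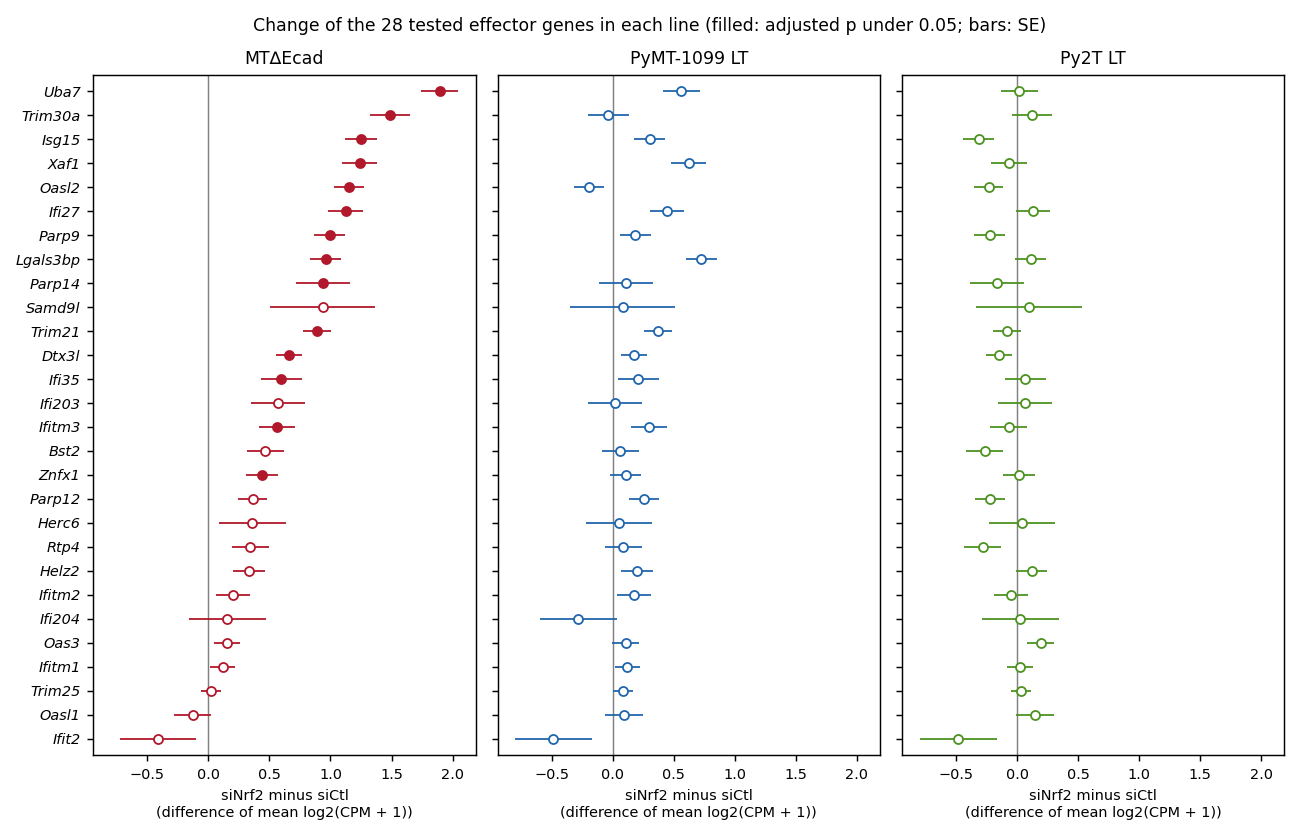
Difference between siNrf2 and siCtl (difference of mean log2(CPM + 1), x axis) of the 28 tested effector genes (y axis, ordered by MT∆Ecad) in MT∆Ecad, PyMT-1099 LT and Py2T LT, with standard errors; filled points passed an adjusted p of 0.05. In MT∆Ecad 14 points are filled, from Znfx1 at 0.44 to Uba7 at 1.90, and none is filled in the other 2 lines.

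ISG15 is a small modifier that is attached to other proteins. Uba7 is the enzyme that activates it, Herc6 the mouse ligase that transfers it and Usp18 the protease that removes it. Isg15 (chromosome 4, 156199424 to 156200818) had 8.64 and 8.89 CPM in siNrf2 libraries and 3.01 and 3.21 CPM in siCtl libraries of MT∆Ecad. The groups did not overlap, and the rise was 1.25 ± 0.13 (SE, limma adjusted p 0.000666), or 2.82-fold. Its values were 1.26 and 0.814 CPM in siNrf2 against 0.718 and 0.571 CPM in siCtl libraries of PyMT-1099 LT, and 0.969 and 0.642 CPM against 1.32 and 1.16 CPM in Py2T LT. Both of these lines thus sat near or below 1 CPM, with siNrf2 above siCtl in the first and below it in the second, and neither difference passed the test.

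Uba7 (chromosome 9, 107975567 to 107984056) had the largest change of any member on the log2(CPM + 1) scale, while Oasl2 had the larger ratio of mean CPM. In MT∆Ecad it stood at 8.67 and 10.8 CPM in siNrf2 and at 1.75 and 1.99 CPM in siCtl libraries, a rise of 1.90 ± 0.15 (SE, limma adjusted p 0.000289) or 5.20-fold. In PyMT-1099 LT it had 11.9 and 10.5 CPM in siNrf2 against 8.47 and 6.20 CPM in siCtl libraries. These groups did not overlap either, and the difference of 0.56 passed only with the replicate block (limma adjusted p 0.213, blocked 0.0213). In Py2T LT the values lay between 0.642 and 0.807 CPM in siNrf2 and at 0.675 and 0.728 CPM in siCtl libraries, and the groups overlapped. The siNrf2 libraries of MT∆Ecad thus lay within the range of the PyMT-1099 LT libraries. Uba7 shares 233 exon bases with Gm20661 and Herc6 1269 with Gm45193, each on the same strand, where reads could have been split or left uncounted. Herc6, at 15.6 to 21.7 CPM in siNrf2 and 12 to 16.6 CPM in siCtl libraries of MT∆Ecad, did not pass (limma adjusted p 0.430, blocked 0.0205), and Usp18 stayed below 0.2 CPM in every library, with 33 reads in all 12.

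The IFIT proteins bind viral RNA. Ifit2 was the only tested one of 4 and pointed the other way from most members. It had 47.1 and 50.4 CPM in siNrf2 libraries of MT∆Ecad, against 66.8 and 63.6 CPM in siCtl libraries. In PyMT-1099 LT it had 6.59 and 12 CPM in siNrf2 against 11.1 and 15.1 CPM in siCtl libraries, and in Py2T LT 3.71 and 7.12 CPM against 6.27 and 9.25 CPM. The siNrf2 library was lower than the siCtl library of the same number in 6 of 6 pairs, and the groups were apart in MT∆Ecad and overlapped in the other lines. The differences were −0.41, −0.49 and −0.48 with a pooled standard error of 0.31, and none passed (limma adjusted p 0.435, 0.710 and 1). With the replicate block Ifit2 fell in MT∆Ecad (adjusted p 0.0245), in PyMT-1099 LT (0.0467) and over the 3 lines (−0.46, 0.00237), and did not pass in Py2T LT (0.113). A fit of the 4 MT∆Ecad libraries alone, without the block, also called it lower there. Ifit2 values are described after they were seen, outside the rule that chose genes for per-library values.

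Ifit1 and Ifit3 lay just below the filter. Ifit3 had 0.568 and 0.668 CPM in siNrf2 and 0.940 and 0.960 CPM in siCtl libraries of MT∆Ecad, and Ifit1 had 0.725 and 0.988 CPM in siNrf2 and 0.648 and 0.517 CPM in siCtl libraries. Without the filter on low values Ifit3 was called lower in MT∆Ecad. Reads of Ifit3 and its close copy Ifit3b, which had at most 0.174 CPM, may have been split by the counting.

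The OAS enzymes make 2′-5′-linked oligoadenylate, which activates the ribonuclease RNase L, and the mouse Oasl proteins are related. Oasl2 (chromosome 5, 114896926 to 114912245) was low in MT∆Ecad and rose there to 1.83 and 2.00 CPM in siNrf2 libraries, against 0.292 and 0.332 CPM in siCtl libraries. The groups did not overlap, and the rise was 1.15 ± 0.12 (SE, limma adjusted p 0.000671) or 6.15-fold. In the other lines siNrf2 libraries were lower: 2.87 and 3.65 CPM against 3.77 and 3.94 CPM in PyMT-1099 LT, and 3.13 and 2.76 CPM against 3.27 and 4.02 CPM in Py2T LT. Neither of these 2 differences, −0.19 and −0.23, passed. Oas3 was above 1 CPM in Py2T LT only, where it had 2.81 and 2.04 CPM in siNrf2 and 1.86 and 2.10 CPM in siCtl libraries, and Oasl1 in PyMT-1099 LT only, with 2.63 and 2.67 CPM in siNrf2 and 2.08 and 2.80 CPM in siCtl libraries. Neither passed in any line in the limma fit of all libraries at a pseudocount of 1. With a pseudocount of 0.1 Oas3 was called higher in MT∆Ecad, where it had at most 0.189 CPM, and in the mean effect over the 3 lines. Oas1a, Oas1b, Oas1g and Oas2 were below the filter, and Oas2 had 0 reads in all 12 libraries.

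**Figure D2:**
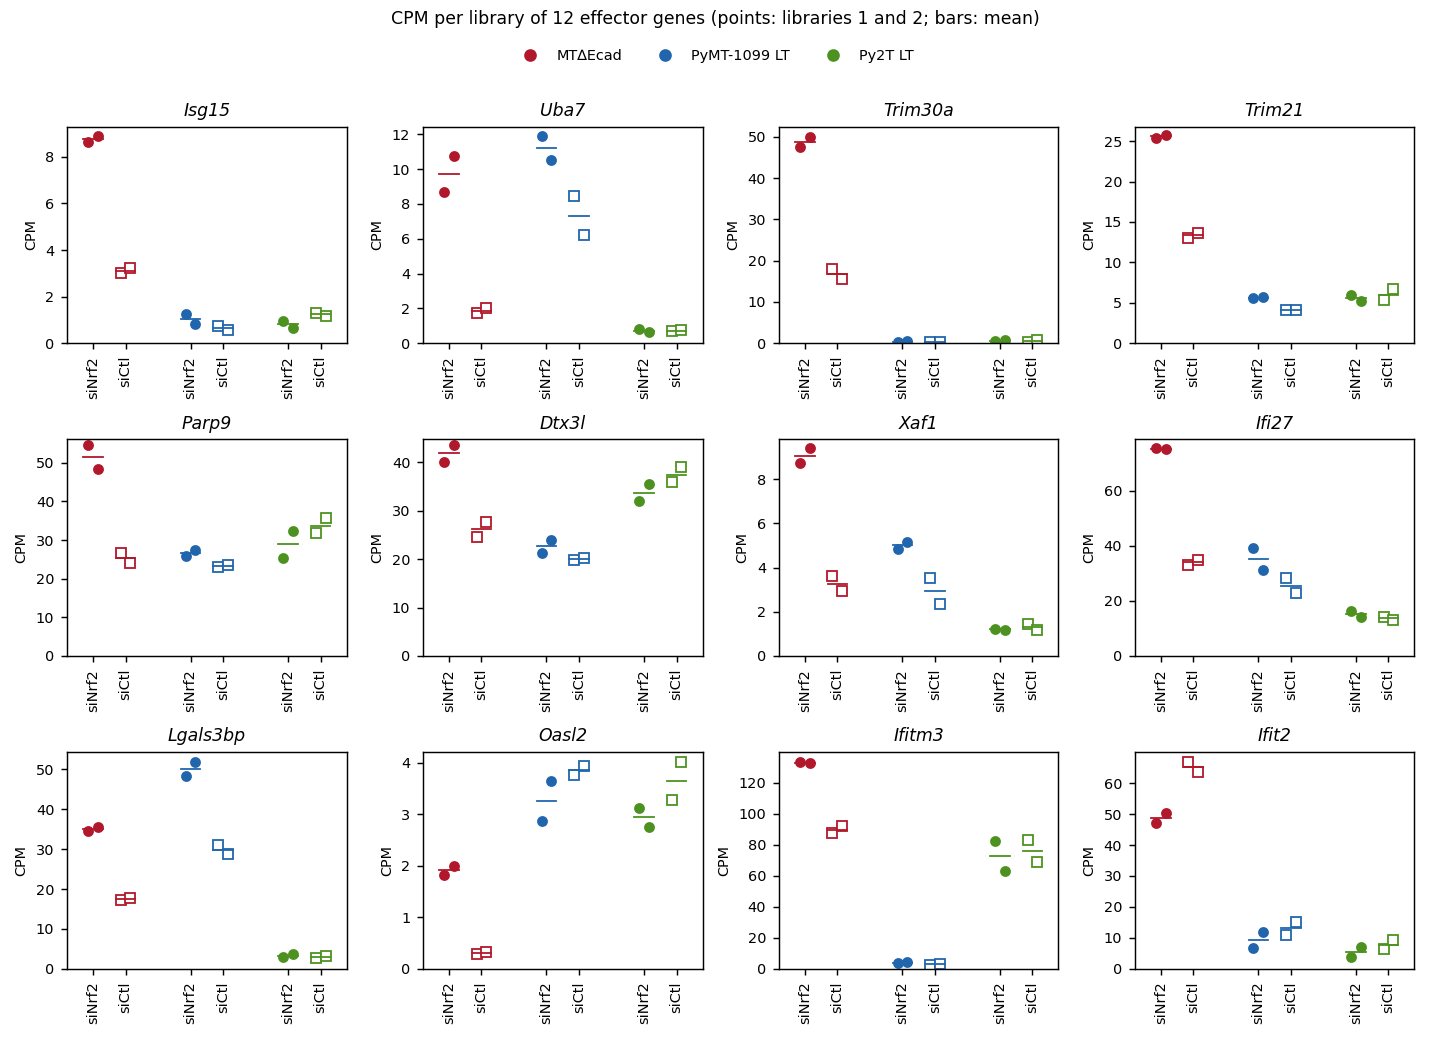
CPM (y axis, linear, from 0) of 12 effector genes in each library, siNrf2 (filled circles) left of siCtl (open squares) in MT∆Ecad, PyMT-1099 LT and Py2T LT; short bars are means of 2 libraries. In MT∆Ecad all panels but Ifit2 have both siNrf2 points above both siCtl points, and Oasl2 lies lower in MT∆Ecad siCtl libraries, at 0.292 and 0.332 CPM, than in any library of the other lines.

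The IFITM proteins block fusion of viruses with the cell, and Bst2 encodes tetherin, which holds budding virus at the surface. Per kilobase of exon, Ifitm2 was the highest member in every group, with a mean of 268 CPM per kb in siNrf2 and 233 CPM per kb in siCtl libraries of MT∆Ecad. Of its 0.655 kb of exon, 268 bases are shared with Gm45717 on the same strand, so this level is uncertain. Ifitm3 rose in MT∆Ecad, with 133 and 133 CPM in siNrf2 against 87.4 and 92.0 CPM in siCtl libraries (0.56 ± 0.15 SE, limma adjusted p 0.0302), and this call was lost without any 1 of the 4 libraries of that line. Bst2 had 12.9 and 13.0 CPM in siNrf2 against 8.78 and 9.45 CPM in siCtl libraries of MT∆Ecad. It did not pass in the limma fit of all libraries and passed with the replicate block (limma adjusted p 0.0670, blocked 0.0184). Ifitm1 exceeded 1 CPM in PyMT-1099 LT only, where its groups overlapped. The Ifitm genes are close copies, so reads shared between them may have been split.

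TRIM proteins are ubiquitin ligases: TRIM21 binds antibody inside the cell, TRIM25 acts on the RNA sensor RIG-I, and TRIM30a is a mouse protein known as a brake on NF-κB signalling. Trim30a (chromosome 7, 104409025 to 104465193) was found mainly in MT∆Ecad, with 47.5 and 50.0 CPM in siNrf2 against 18.0 and 15.5 CPM in siCtl libraries and at most 0.755 CPM in any library of the other lines. Its rise in MT∆Ecad was 1.49 ± 0.16 (SE, limma adjusted p 0.000917) or 2.91-fold. Trim21 (chromosome 7, 102557920 to 102565482) had 25.4 and 25.7 CPM in siNrf2 and 13.1 and 13.6 CPM in siCtl libraries of MT∆Ecad, a rise of 0.89 ± 0.12 (SE, limma adjusted p 0.00179). In PyMT-1099 LT it had 5.57 and 5.67 CPM in siNrf2 against 4.13 and 4.11 CPM in siCtl libraries, which did not overlap but did not pass (limma adjusted p 0.291), and in Py2T LT 5.97 and 5.16 CPM against 5.30 and 6.66 CPM, which overlapped. Reads shared with other genes of the Trim30 cluster may have been split.

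Parp9 and Dtx3l encode 2 partners of one complex that modifies ubiquitin and histones, and their genes lie head to head on chromosome 16. Parp9 (35938470 to 35972621) had 54.5 and 48.5 CPM in siNrf2 and 26.7 and 24.0 CPM in siCtl libraries of MT∆Ecad, a rise of 0.99 ± 0.13 (SE, limma adjusted p 0.00166) or 2.03-fold. Dtx3l (35926515 to 35939027) had 40.1 and 43.5 CPM in siNrf2 against 24.6 and 27.7 CPM in siCtl libraries, a rise of 0.66 ± 0.11 (SE, limma adjusted p 0.00447). The pair shares 458 exon bases on opposite strands, and the sources used here do not say whether counting used the strand, so the reads of that stretch cannot be told apart. In PyMT-1099 LT, Parp9 had 25.9 and 27.4 CPM in siNrf2 against 23 and 23.6 CPM in siCtl libraries, and Dtx3l had 21.3 and 24.0 CPM against 19.7 and 20.2 CPM. In Py2T LT, Parp9 had 25.5 and 32.3 CPM in siNrf2 against 31.8 and 35.6 CPM in siCtl libraries, and Dtx3l had 31.9 and 35.4 CPM against 36.0 and 38.9 CPM. Neither gene passed in these 2 lines. Parp14, an ADP-ribosyltransferase of the same neighbourhood (35831892 to 35871518), had 21.3 and 22 CPM in siNrf2 against 11.4 and 10.3 CPM in siCtl libraries of MT∆Ecad and rose by 0.94 ± 0.22 (SE, limma adjusted p 0.0199), a call that no fit without 1 of these 4 libraries kept. In the other lines its groups overlapped, at 6.01 and 9.32 CPM in siNrf2 against 5.99 and 7.91 CPM in siCtl libraries of PyMT-1099 LT and at 13.2 and 17.6 CPM against 15 and 19.7 CPM in Py2T LT. Parp12 had 62.3 and 59.3 CPM in siNrf2 against 50.0 and 44.3 CPM in siCtl libraries of MT∆Ecad. It did not pass in the limma fit of all libraries and passed with the block (limma adjusted p 0.0741, blocked 0.00729).

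Of 8 other effectors tested, 5 rose in MT∆Ecad. Xaf1, a promoter of apoptosis (chromosome 11, 72301461 to 72313733), had 8.74 and 9.38 CPM in siNrf2 against 3.60 and 2.95 CPM in siCtl libraries of MT∆Ecad and rose by 1.24 ± 0.15 (SE, limma adjusted p 0.00119) or 2.77-fold. In PyMT-1099 LT it had 4.85 and 5.16 CPM in siNrf2 against 3.52 and 2.37 CPM in siCtl libraries, apart but passing only with the block (0.62, limma adjusted p 0.143, blocked 0.0382). In Py2T LT, at 1.23 and 1.17 CPM in siNrf2 and 1.45 and 1.16 CPM in siCtl libraries, the groups overlapped.

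Ifi27, a small membrane protein of mitochondria and the nuclear envelope (chromosome 12, 103434189 to 103440245), was at 75.5 and 75.0 CPM in siNrf2 and 33.2 and 34.8 CPM in siCtl libraries of MT∆Ecad, a rise of 1.12 ± 0.14 (SE, limma adjusted p 0.00157) or 2.21-fold. In PyMT-1099 LT it was at 39.3 and 31.2 CPM in siNrf2 against 28.4 and 22.7 CPM in siCtl libraries, which passed only with the block (0.45, limma adjusted p 0.301, blocked 0.0138), and in Py2T LT at 16.3 and 14.0 CPM against 14.2 and 13.2 CPM, which did not pass. Lgals3bp, a secreted glycoprotein that binds galectins (chromosome 11, 118392747 to 118401959), was the member nearest to a call in a second line. It stood at 34.4 and 35.7 CPM in siNrf2 against 17.3 and 17.7 CPM in siCtl libraries of MT∆Ecad (0.96 ± 0.13 SE, limma adjusted p 0.00187). In PyMT-1099 LT it stood at 48.3 and 51.8 CPM in siNrf2 against 31.1 and 28.7 CPM in siCtl libraries, a difference of 0.73 ± 0.13 (SE, limma adjusted p 0.0531, blocked 0.00717). In Py2T LT it had 2.91 and 3.68 CPM in siNrf2 against 2.60 and 3.34 CPM in siCtl libraries, and these overlapped.

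Ifi35 and Znfx1 were the other 2 that rose in MT∆Ecad, by 0.60 (limma adjusted p 0.0393) and 0.44 (0.0458). Both calls were lost without any 1 of the 4 MT∆Ecad libraries and without either siCtl library of PyMT-1099 LT, and that of Znfx1 also without either siNrf2 library of PyMT-1099 LT. Both were also lost without the filter on low values and in a fit of the 4 MT∆Ecad libraries alone, Ifi35 in edgeR and Znfx1 with a pseudocount of 0.1. Samd9l differed by 0.94 in MT∆Ecad, with 22.7 and 20.3 CPM in siNrf2 against 12.9 and 8.90 CPM in siCtl libraries. Its standard error was 0.43, the widest of the members. Replicate 2 exceeded replicate 1 in all 4 groups of the other lines, for example with 16.3 and 33.6 CPM in siNrf2 libraries of PyMT-1099 LT. It passed only with the block (limma adjusted p 0.174, blocked 0.00408), as did Helz2 (0.33, limma adjusted p 0.110, blocked 0.00934) and Ifi203, a nuclear HIN-200 protein (0.57, limma adjusted p 0.109, blocked 0.00754).

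In PyMT-1099 LT, 0 of 28 members passed in either direction, where 0.336% of all tested genes rose and 0.184% fell. At an unadjusted p under 0.05 the limma fit had 6 members. The edgeR test on recovered reads called 0 and DESeq2 called 1, Lgals3bp. The members' median difference was 0.11, against 0.00 for all genes, and 24 of 28 were positive. Both siNrf2 libraries lay above both siCtl libraries for 13 members and below them for 1, Oasl2, against 20.0% and 17.1% of all genes. With the replicate block 5 members rose (Uba7, Ifitm3, Xaf1, Ifi27 and Lgals3bp) and Ifit2 fell, where 5.05% of all genes rose and 3.95% fell.

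In Py2T LT, 0 of 28 members passed, where 0.056% of all tested genes rose and 0.096% fell. At an unadjusted p under 0.05 there was 1 member in the limma fit, and edgeR and DESeq2 called 0. The block called 0 members, with 0.344% of all genes higher and 0.672% lower. The median difference was 0.02, against −0.02 for all genes, and 15 of 28 were positive. Isg15, Oasl2, Parp12 and Dtx3l had both siNrf2 libraries below both siCtl libraries, and Ifitm1 and Helz2 above them, which is 14.3% and 7.14% of the members against 15.9% and 7.63% of all genes.

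Averaged over the 3 lines with equal weight, 9 of 28 members rose and 0 fell, where 5.99% of all genes rose and 6.26% fell. Uba7 rose by 0.83 ± 0.09, Lgals3bp by 0.60 ± 0.07, Xaf1 by 0.60 ± 0.08, Ifi27 by 0.57 ± 0.08 and Trim30a by 0.53 ± 0.10 (SE, limma adjusted p 0.00182, 0.00285, 0.00455, 0.00506 and 0.0110). Isg15 rose by 0.41, Trim21 by 0.39, Parp9 by 0.32 and Dtx3l by 0.23 (limma adjusted p 0.0110, 0.00927, 0.0264 and 0.0443). Of these, Parp9 was called in 2 and Dtx3l in 1 of 12 fits that each left out a library, and the other 7 in all 12. Isg15 and Trim30a did not pass in edgeR, in DESeq2 or with a pseudocount of 0.1, and Dtx3l did not pass with that pseudocount or without the filter on low values. Outside MT∆Ecad, Trim30a had at most 0.755 CPM, and Isg15 was lower in siNrf2 than in siCtl libraries of Py2T LT. Parp9 and Dtx3l also had lower mean CPM in siNrf2 than in siCtl libraries of Py2T LT, 28.9 against 33.7 and 33.7 against 37.4. The averages of Trim30a, Isg15, Parp9 and Dtx3l thus rest mainly on MT∆Ecad. With the replicate block 18 rose and Ifit2 fell, where 19.0% of all genes rose and 21.0% fell.

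The effect of siNrf2 differed between lines for 7 of 28 members, against 2.18% of all genes (limma F test, adjusted p under 0.05): Oasl2 (0.00932), Uba7 (0.00956), Isg15 (0.0106), Trim30a (0.0207), Parp9 (0.0252), Xaf1 (0.0346) and Trim21 (0.0412). With the replicate block 15 passed, against 19.0% of all genes. This count is sensitive to single libraries: it was 0 without replicate 1 of siCtl and 1 without replicate 2 of siNrf2 in MT∆Ecad, 3 without either other library of that line, and 4 to 6 without 1 library of another line. Among pairs of lines, the effect was larger in MT∆Ecad than in Py2T LT for 10 members (2.54% of all genes) and larger in MT∆Ecad than in PyMT-1099 LT for 4 members (1.16% of all genes), Isg15, Uba7, Oasl2 and Trim30a. No member had a smaller effect in MT∆Ecad (0.96% and 0.648% of all genes). With the block these counts were 17 (13.4% of all genes larger and 9.49% smaller) and 9 (7.05% larger and 7.43% smaller), and again 0 members were smaller. Over fits that each left out 1 library they ran from 4 to 9 and from 1 to 5, and the difference of Oasl2 passed against both lines in all 12, while that of Isg15 from PyMT-1099 LT passed in 3 of them. For Isg15 the difference of effects was 1.56 ± 0.18 from Py2T LT and 0.95 ± 0.18 from PyMT-1099 LT (SE, limma adjusted p 0.00617 and 0.0405). Between PyMT-1099 LT and Py2T LT, 0 members and 0.008% of all genes differed in the lower direction and 0 in the higher, with 7 members at an unadjusted p under 0.05 and 0 in edgeR, in DESeq2 and with the block (0.04% of all genes higher and 0.016% lower). These 3 comparisons of effects share libraries. Trim30a reached 1 CPM in MT∆Ecad only and passed the filter through that line, and Isg15 was near or below 1 CPM in the others. The log2(CPM + 1) scale understates changes at such levels, so the differences of effects of these genes are in part set by it. With a pseudocount of 0.1 the F test called only Oasl2 and Uba7.

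The lines also differed in which effectors their siCtl libraries held. Of the 28 tested members, 18 were at 1 CPM or more in both siCtl libraries of every line, 6 in those of 2 lines (Isg15, Uba7, Oasl2, Trim25, Ifi203 and Rtp4) and 4 in those of 1 line (Oas3, Oasl1, Ifitm1 and Trim30a). Between siCtl libraries, 12 members were higher and 7 lower in MT∆Ecad than in PyMT-1099 LT, where 27.0% and 30.6% of all genes were. Against Py2T LT, 17 were higher and 6 lower in MT∆Ecad (25.9% and 28.6% of all genes). In Py2T LT, 9 were higher and 12 lower than in PyMT-1099 LT (28.1% and 27.5% of all genes).

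Trim25 gave the widest contrast. It had 0 reads in both siCtl libraries of MT∆Ecad, against 106 and 107 CPM in siCtl libraries of PyMT-1099 LT and 109 and 113 CPM in those of Py2T LT. Taking 3 reads as the limit that 0 reads in a library allow, it was at least 956-fold lower in MT∆Ecad than in PyMT-1099 LT and at least 980-fold lower than in Py2T LT. The siNrf2 libraries of MT∆Ecad had 0 and 1 read. Ifitm3 was the reverse case for another line: siCtl libraries had 87.4 and 92.0 CPM in MT∆Ecad and 83.2 and 69.1 CPM in Py2T LT, against 2.76 and 3.46 CPM in PyMT-1099 LT, differences of 4.47 and 4.23 (limma adjusted p 4.62e-09 and 8.67e-09). Lgals3bp was lowest in Py2T LT, 2.96 below PyMT-1099 LT (limma adjusted p 3.9e-08), and Ifit2 was highest in MT∆Ecad, 2.25 above PyMT-1099 LT and 2.94 above Py2T LT (limma adjusted p 0.000192 and 3.42e-05). Genes in this paragraph were named after their values were seen.

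**Figure D3:**
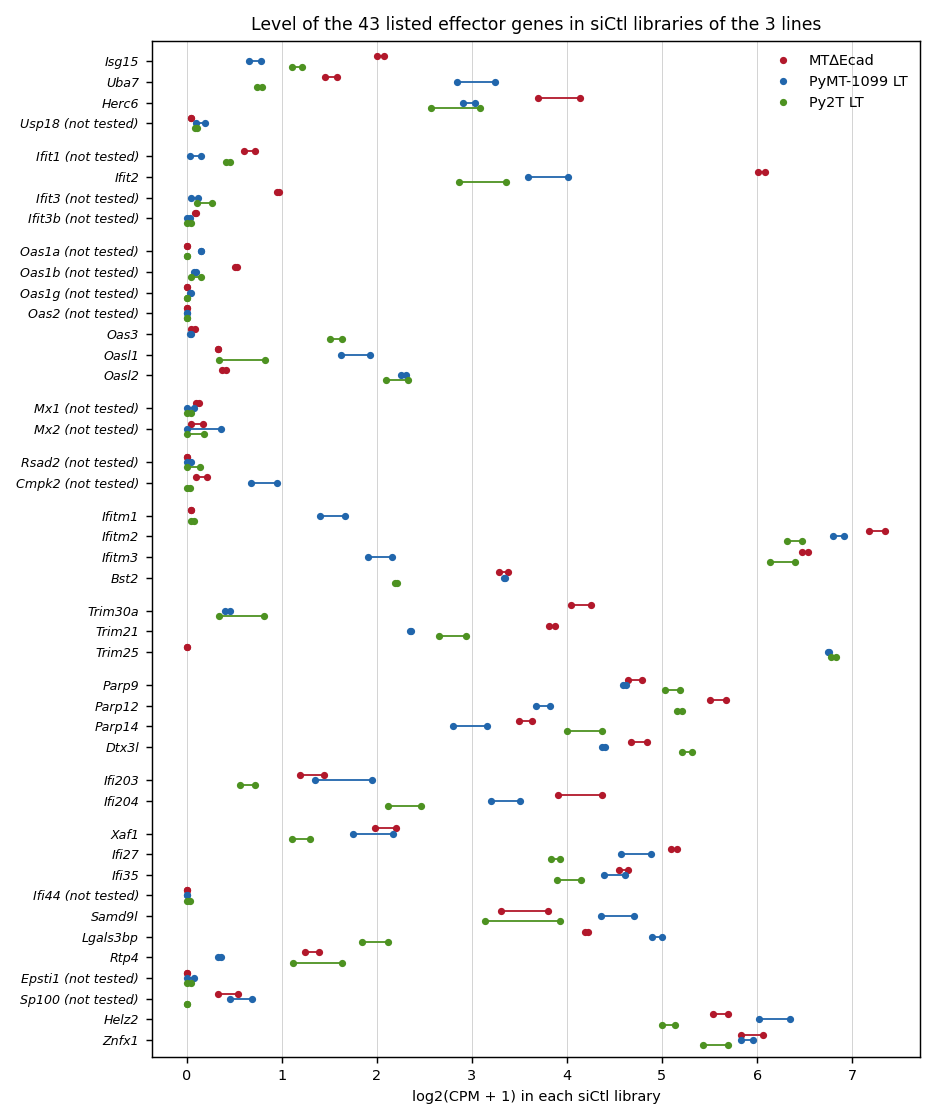
Level of all 43 listed effector genes in siCtl libraries (log2(CPM + 1), x axis), grouped by role down the y axis; each point is 1 library and a line joins the 2 libraries of a cell line. Trim25 is at 0 in MT∆Ecad and among the highest genes in the other lines; the 15 genes marked as not tested sit below 1.

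The remaining 15 of 43 members did not reach the filter, and many of them are textbook interferon-induced genes: Usp18, Ifit1, Ifit3, Ifit3b, Oas1a, Oas1b, Oas1g, Oas2, Mx1, Mx2, Rsad2, Cmpk2, Ifi44, Epsti1 and Sp100. Their totals over all 12 libraries ran from 0 reads for Oas2, 9 for Rsad2 (viperin, which makes a chain-terminating nucleotide) and 20 for Mx1 to 143 for Ifit1. Outside the threshold, the second-highest library was at 0.940 CPM for Ifit3, 0.751 CPM for Cmpk2 and 0.725 CPM for Ifit1, and just inside it was at 2.10 CPM for Oas3, 2.11 CPM for Rtp4 and 2.17 CPM for Ifitm1. The RefSeq annotation classes 3 of the 15, Mx1, Mx2 and Oas1b, as transcribed pseudogenes in the reference strain. A member that passed the filter through 1 group had to be high there, so the shares above describe the 28 tested genes and not the list.

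The signal upstream of the effectors was examined in lists of other pathway genes. Of 21 interferon genes, 0 reached the filter and 13 had no read in any library. They had 0 reads in all 4 MT∆Ecad libraries, where a gene with 0 reads is limited to 0.111 CPM, and 29 reads over the 12 libraries. Leukocyte markers summed to 7.47 and 8.37 CPM in siNrf2 and 4.87 and 4.99 CPM in siCtl libraries of MT∆Ecad, almost all from Cd68 and Csf1r. Ptprc, the pan-leukocyte gene, had at most 0.0324 CPM there, and Cd3e and Adgre1 had 0. Endothelial markers summed to at most 0.0872 CPM in that line. In PyMT-1099 LT, leukocyte markers summed to 47.2 to 48.4 CPM in siNrf2 and 28.3 to 33.3 CPM in siCtl libraries, and Cdh5 reached 124 CPM. The part of these levels in the results was not tested.

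Counts of called genes in the following lists stand against 8.89% of all tested genes higher and 8.42% lower in MT∆Ecad, and against 21.4% and 21.2% with the block. Of 6 tested receptor genes, 2 rose and 0 fell in MT∆Ecad: Ifngr2, a chain of the interferon gamma receptor (72.7 and 66.5 CPM in siNrf2 against 45.6 and 39.1 CPM in siCtl libraries), and Il10rb, shared by interferon lambda and IL-10 family receptors. Ifnlr1, the other chain of the interferon lambda receptor, had 0 CPM in every MT∆Ecad library and passed the filter through PyMT-1099 LT. The 2 chains of the type I receptor, Ifnar1 and Ifnar2, differed by −0.09 and 0.19 and did not pass in the limma fit of all libraries. Ifnar2 passed with the replicate block (limma adjusted p 0.247, blocked 0.0404), where 3 receptor genes rose and 0 fell. Of 11 tested JAK, STAT and IRF genes, 3 rose and 0 fell, and with the block 8 rose and 0 fell (21.4% and 21.2% of all genes). Irf7, the factor that amplifies interferon expression, had 3.47 and 3.78 CPM in siNrf2 and 0.292 and 0.591 CPM in siCtl libraries of MT∆Ecad, a rise of 1.69 ± 0.10 (SE, limma adjusted p 9.67e-05). It was below 1 CPM in the siCtl libraries of every line. Irf7 thus passed the filter only through siNrf2 groups, where it was high, and its call is in part set by the filter. Irf1 rose by 0.60 (limma adjusted p 0.0106). Stat2 and Irf9, which act at the response element, differed by 0.71 and 0.46 and passed only with the block (limma adjusted p 0.0726 and 0.113, blocked 0.000644 and 0.0108).

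Among 13 tested nucleic acid sensors and adaptors, 4 rose and 1 fell in MT∆Ecad (8.89% and 8.42% of all genes). Ddx58, the RNA sensor RIG-I, had 116 and 113 CPM in siNrf2 against 55.1 and 52.8 CPM in siCtl libraries (1.07 ± 0.12 SE, limma adjusted p 0.000963). Ifih1, the sensor MDA5, rose by 0.86 and Dhx58 by 0.61, and Cgas, the DNA sensor, fell by 0.63 (limma adjusted p 0.0129, 0.0459 and 0.0300). Of 6 negative regulators outside the effector list 0 rose and Ptpn1 fell, by 0.43 (limma adjusted p 0.0168), where 8.42% of all genes fell. Isg15 and Usp18 were listed as negative regulators too but are counted with the effectors, where Isg15 rose and Usp18 was below the filter. With the block 3 fell, where 21.2% of all genes did.

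Most tested genes of 2 other interferon-responsive lists rose in MT∆Ecad, where 8.89% of all genes rose, 8.42% fell and the median over all genes was 0.00. Of 15 tested genes of MHC class I presentation and the immunoproteasome, 11 rose and 0 fell, with a median of 0.70. Tapbp, the peptide-loading chaperone tapasin, had 411 and 444 CPM in siNrf2 against 174 and 190 CPM in siCtl libraries (1.23 ± 0.14 SE, limma adjusted p 0.000929). Tap2 and Tap1, the peptide transporter, rose by 1.19 and 0.98, and the immunoproteasome subunit Psmb8 by 0.94 (limma adjusted p 0.00365, 0.00251 and 0.0004). Psmb8 had 2.43 and 2.35 CPM in siNrf2 against 0.648 and 0.886 CPM in siCtl libraries of MT∆Ecad. Psmb9, also counted, had 2.21 and 2.93 CPM against 0.940 and 0.886 CPM. Both reached 1 CPM only in siNrf2 libraries of MT∆Ecad. They thus passed the filter through the group where they were high, and their calls add no separate support. Of 11 tested interferon-inducible GTPases, 10 rose and 0 fell, with a median of 0.94; the largest were Irgm2 (1.40), Ifi47 (1.35), Igtp (1.34) and Gbp7 (1.28), with limma adjusted p 0.000508, 0.00495, 0.000561 and 0.0055. In PyMT-1099 LT, Irgm2 was the 1 gene of all these lists that passed, where 0.336% of all genes rose and 0.184% fell. In Py2T LT 0 passed, where 0.056% rose and 0.096% fell. With the block, 7 passed higher and 1 lower (Ptpn1) in PyMT-1099 LT (5.05% and 3.95% of all genes), and 0 passed higher and 1 lower (Gbp3) in Py2T LT (0.344% and 0.672%).

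**Figure D4:**
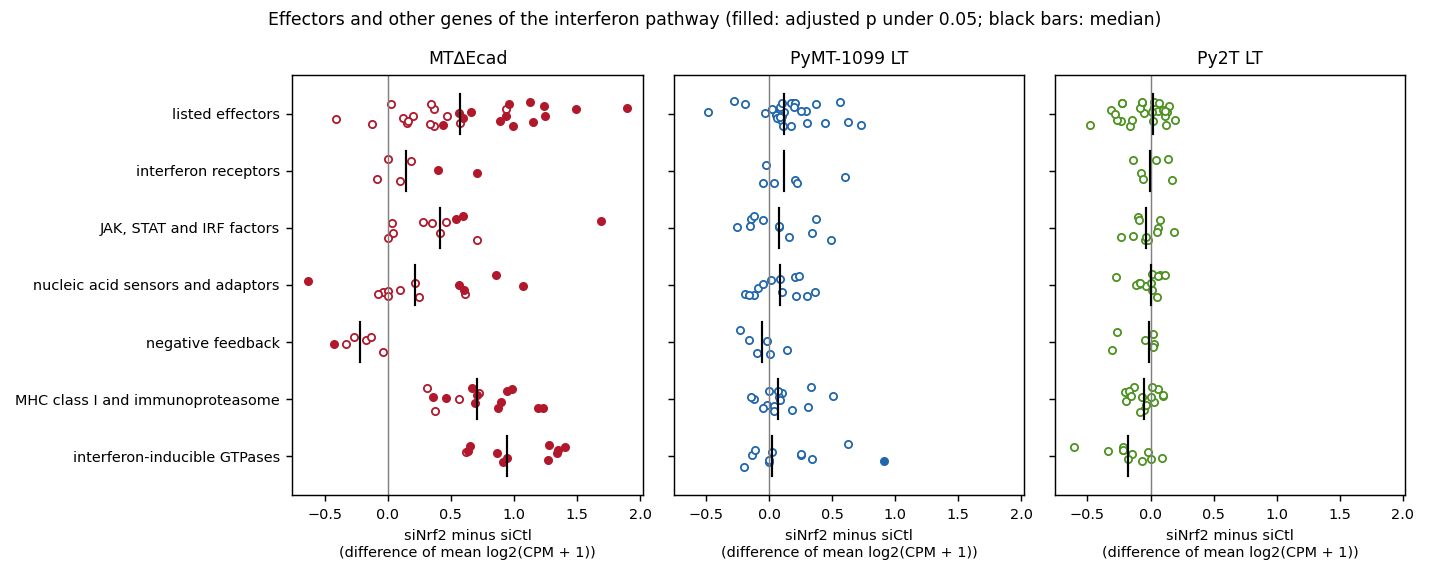
Difference between siNrf2 and siCtl (difference of mean log2(CPM + 1), x axis) of every tested gene in the effector list and 6 other interferon pathway lists (y axis) in the 3 lines; filled points passed an adjusted p of 0.05 and black bars are medians. In MT∆Ecad the medians are 0.57 for effectors, 0.70 for MHC class I and immunoproteasome genes and 0.94 for GTPases, and in Py2T LT those medians are 0.02, −0.05 and −0.18.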

How the data were processed

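RNA-seq libraries of 3 mouse mammary tumour lines (6 groups, 2 libraries each) were prepared with a stranded, ribosomal RNA-depleted total RNA kit and sequenced as single reads, as the labels' protocols state. The submitters' processing notes name STAR and the mm10 build. The counting tool, the annotation and the strand setting are not given in the sources used here. The authors deposited CPM per Entrez gene. All values came out as whole reads within 0.01 of a read, and these recovered reads gave library sizes of 27088970 to 37070635. Of 24454 gene IDs, 24374 matched RefSeq and 7 more GENCODE M21, and 73, with 0.730% to 1.52% of the reads, matched neither.

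Genes with at least 1 CPM in at least 2 libraries (12502) were tested on log2(CPM + 1) with limma 3.58.1 in R 4.3.3, with 6 group means, 6 residual degrees of freedom, a trended prior and Benjamini-Hochberg adjustment over all tested genes at 0.05. Alternatives were a pseudocount of 0.1, no filter, a filter at 5 CPM, TMM scaling, edgeR 4.0.16 (quasi-likelihood) and DESeq2 1.42.0 on recovered read counts, a replicate block within each line (3 residual degrees of freedom), the 4 libraries of 1 line alone, and each library left out. Libraries of the same number deviated together within each line (r over genes 0.62 for MT∆Ecad, 0.78 for PyMT-1099 LT, 0.85 for Py2T LT). The numbers were therefore taken to pair siNrf2 with siCtl, a hint from the data beside the shared numbers in the labels. Groups of PyMT-1099 LT and Py2T LT also deviated together (r 0.56 to 0.79), so this was not particular to a line. Between MT∆Ecad and the other lines r was −0.41 to −0.02. The series text calls the duplicates biological; p-values measure the spread between these libraries. A count of 0 in a library allows up to 3 reads, at most 0.111 CPM, and covers counting error only. The procedure was run on simulated counts with independent libraries and 1 fixed spread. There, 91% of genes changed by 1 log2 unit were called by limma, with 16 false calls among 12428 genes. That simulation had no paired replicates, so it does not show how the fit performs at the spread of these data.

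Members and lists were chosen with earlier results of these data known. Library values are given for members called in the mean effect over the lines, for the 10 largest called changes in each line and for members called in the test between lines; other members are given by range and count, or after their values were seen. Of the other pathway lists, counts and up to 4 members with the largest called change in MT∆Ecad are given, and further genes of those lists were named after their values were seen. Promoter windows are from RefSeq (GRCm38.p6), and levels per kilobase use GENCODE M21 exon length. Some genes of the lists are not reported here by name.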

Additional observations from a re-analysis of the deposited data

Results flagged for a closer look

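The effect of siNrf2 on 7 members differed between the 3 lines in the limma F test, with adjusted p 0.00932 for Oasl2, 0.00956 for Uba7, 0.0106 for Isg15, 0.0207 for Trim30a, 0.0252 for Parp9, 0.0346 for Xaf1 and 0.0412 for Trim21. On the log2(CPM + 1) scale, siNrf2 minus siCtl was 1.15 for Oasl2 in MT∆Ecad, with −0.19 for PyMT-1099 LT and −0.23 for Py2T LT. For Uba7 it was 1.90 in MT∆Ecad, with 0.56 for PyMT-1099 LT and 0.02 for Py2T LT. Of fits that each left out 1 of 12 libraries, 11 kept the call of Uba7, 10 those of Isg15 and of Oasl2, 6 that of Trim30a, 3 that of Parp9, 2 that of Xaf1 and 1 that of Trim21. Without replicate 1 of siCtl in MT∆Ecad, 0 of the 7 passed. Trim30a and Isg15 were near or below 1 CPM outside MT∆Ecad, where this scale understates changes, so their calls are in part set by it.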

How the results depend on the processing

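No change of setting turned a called result round. In MT∆Ecad the count of members called ran from 10 to 16 over fits that each left out 1 library, and in PyMT-1099 LT from 0 to 1, where Lgals3bp was called without either siNrf2 library of Py2T LT. In Py2T LT it was 0 in each of these fits. The mean effect gave 7 to 13 and the F test between lines 0 to 6. The larger effect in MT∆Ecad was called for 1 to 5 members against PyMT-1099 LT and for 4 to 9 against Py2T LT. Of the siCtl contrasts, MT∆Ecad against PyMT-1099 LT gave 15 to 20, MT∆Ecad against Py2T LT 18 to 23 and Py2T LT against PyMT-1099 LT 18 to 22. In PyMT-1099 LT, TMM scaling and DESeq2 each called 1 member, Lgals3bp, and the fit without a filter on low values called 1, Ifi44. With the replicate block, which uses the pairing of numbers within a line, 21 members were called in MT∆Ecad, 6 in PyMT-1099 LT, 19 in the mean effect and 15 in the F test. The blocked differences of effects were 9 from PyMT-1099 LT and 17 from Py2T LT. In edgeR 1 member passed the F test, 1 the difference from PyMT-1099 LT and 5 that from Py2T LT. With a pseudocount of 0.1 the F test called 2 and the difference from PyMT-1099 LT 1. The cause of these shifts was not tested. With 2 libraries a group, the precision of every difference rests on the spread shared by all 6 groups.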

Other observations

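Trim25, at 0 or 1 read per library in MT∆Ecad, lies on chromosome 11 (88999403 to 89020294) between genes that were expressed there. Its nearest neighbours, looked up after the Trim25 values were seen, were Coil and Dgke. Coil had 16.3 to 20.1 CPM in MT∆Ecad, 17.6 to 21.0 CPM in PyMT-1099 LT and 19.1 to 22.6 CPM in Py2T LT, over both siRNAs. Dgke had 16.6 to 23 CPM in MT∆Ecad, 35 to 37.2 CPM in PyMT-1099 LT and 18.1 to 22.2 CPM in Py2T LT. Both genes thus had reads in every MT∆Ecad library.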
